A study of Saccharomyces cerevisiae with 96 samples.

Results

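NAD captureSeq of unfragmented RNA from dxo1Δrai1Δ yeast is described here, from the deposited count table of 3 +ADPRC and 3 −ADPRC libraries, which are 6 of the 96 libraries of the series. The enzyme ADP-ribosyl cyclase (ADPRC) exchanges the nicotinamide of an NAD cap for an alkyne, to which biotin is clicked, so that NAD-RNA is retained on streptavidin. The −ADPRC libraries passed through the same steps without the enzyme. Short RNAs were size-selected, so that the reads mostly come from the first part of an RNA. The strain carries dxo1::natNT2 and rai1::hphNT1 in BY4742 (MATα his3Δ1 leu2Δ0 lys2Δ0 ura3Δ0), and it was grown in YPD to log phase in biological triplicate. The strains set beside it are dxo1Δrai1Δnpy1Δ, dxo1Δ, rai1Δ and WT, all BY4742 with the same auxotrophic alleles, each with 3 +ADPRC and 3 −ADPRC libraries. Per the labels, dxo1Δrai1Δ and dxo1Δrai1Δnpy1Δ capture libraries share 1 sequencing run, whereas dxo1Δ, rai1Δ and WT each have a run of their own, so strain and run cannot be told apart in those 3 comparisons.

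An NAD cap takes the place of the m7G cap when RNA polymerase II starts a transcript with NAD in place of ATP. Rai1 and Dxo1 belong to 1 family of enzymes that take the whole NAD off the RNA, which leaves a 5′-monophosphate that exonucleases can attack. Rai1 works in the nucleus as the partner of the exonuclease Rat1. For its relative Dxo1, the study cites claims of nuclear and of cytosolic location, and saw only very weak fluorescence throughout the cell. Npy1 is a Nudix hydrolase that cuts the pyrophosphate within NAD, and it is intact in dxo1Δrai1Δ.

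Both deleted genes were absent where the strain label says so. DXO1 and RAI1 had 0 reads in all 6 capture libraries. In WT, where both genes are intact, RAI1 also had 0 reads in all 6 capture libraries. DXO1 had 4, 0 and 0 reads in the WT +ADPRC libraries, so the capture counts alone cannot show a deletion. In the transcriptome libraries of the strain, counted over coding sequences, DXO1 had 6, 10 and 4 reads, against 89, 132 and 144 reads in WT. RAI1 had 1, 1 and 2 reads in dxo1Δrai1Δ coding sequences, against 368, 422 and 455 in WT.

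The +ADPRC libraries held 8865366, 4592376 and 12659232 counted reads, and the −ADPRC libraries 4939163, 3564455 and 3247237. rRNA and tRNA took 92.0% to 96.0% of the +ADPRC reads and 98.7% to 99.0% of the −ADPRC reads. Rows of rRNA precursors and of repeated rRNA copies count the same reads more than once, so these shares are upper values. The −ADPRC replicate 1 stood apart from the other controls. It held reads on 2211 mRNAs, against 870 and 919 in the other controls, and 1437 of the 2869 mRNAs with any control read had it in that library alone. The scaling factor of the trimmed mean of M values (TMM) was 0.385 for this library, 0.772 and 0.852 for the other controls, and between 1.03 and 2.07 for the +ADPRC libraries.

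ADPRC treatment raised the share of reads on mRNAs. For each mRNA, the authors counted reads from 120 nucleotides before to 65 nucleotides after the translation start, called its 5′ region here, so that levels of different mRNAs refer to 1 length of 185 nucleotides. These regions took 7.01%, 7.04% and 3.52% of reads in +ADPRC replicates 1, 2 and 3, against 0.244%, 0.192% and 0.236% in the −ADPRC replicates. The means were 5.85% ± 2.02 in +ADPRC and 0.224% ± 0.0279 in −ADPRC libraries (SD, n = 3 each), a ratio of 26.1. The groups did not overlap, and the two-sided exact permutation test gave p = 0.1, the smallest value that 3 against 3 libraries allow. The +ADPRC replicate 3 had about the same mRNA make-up as the other +ADPRC libraries but the most rRNA and tRNA. Without rRNA and tRNA rows, mRNA 5′ regions took 88.4% ± 1.19 of +ADPRC reads and 19.5% ± 1.90 of −ADPRC reads.

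Most of the mRNA reads of the controls fell on YLR162W, an open reading frame that lies beside the rDNA. It had 6516, 4051 and 9843 reads in +ADPRC libraries and 7022, 4784 and 5425 in −ADPRC libraries, which is 1.05% to 2.21% of +ADPRC and 58.4% to 70.7% of −ADPRC mRNA reads. Without it, a choice made after seeing the data, the mRNA share was 5.78% ± 2.02 in +ADPRC and 0.0761% ± 0.0226 in −ADPRC libraries, a ratio of 75.9. The controls then held 5005, 2057 and 2248 mRNA reads in all, so that most single mRNAs had few control reads or none.

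**Figure D1:**
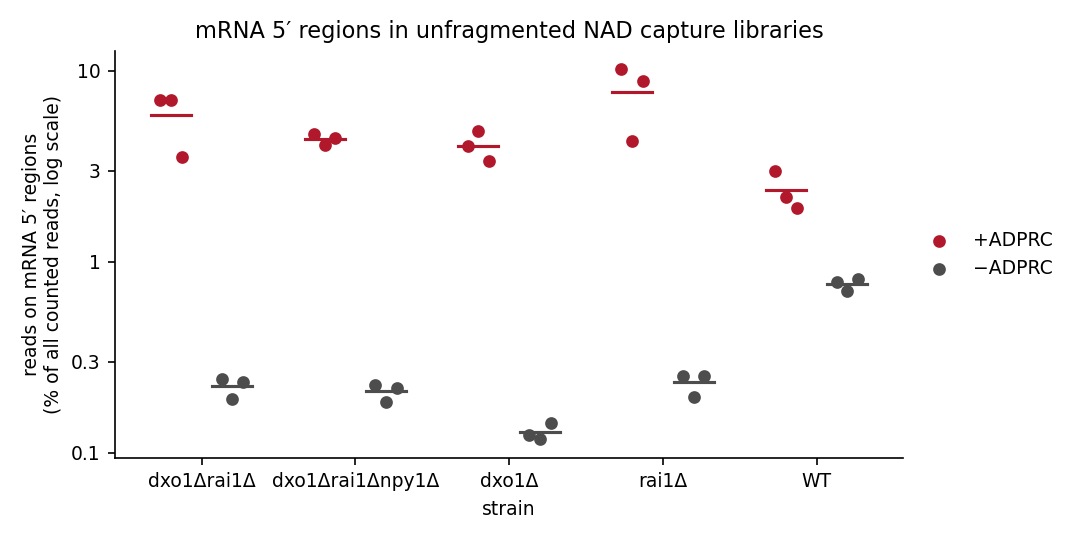
Share of all counted reads on mRNA 5′ regions (percent, log scale) in every unfragmented capture library of dxo1Δrai1Δ and 4 other strains. Points are the 3 replicates in order and bars are means. In dxo1Δrai1Δ the +ADPRC libraries lie at 3.52% to 7.04% and the −ADPRC libraries at 0.192% to 0.244%.

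Among the other strains, the median mRNA share of +ADPRC libraries was 4.44% in dxo1Δrai1Δnpy1Δ, 4.02% in dxo1Δ, 8.86% in rai1Δ and 2.19% in WT, beside 7.01% in dxo1Δrai1Δ. The +ADPRC range of dxo1Δrai1Δ overlapped those of all these strains except WT, whose highest +ADPRC library was at 2.99%. The −ADPRC libraries of WT held 0.701% to 0.811% of reads on mRNAs, above the 0.192% to 0.244% of dxo1Δrai1Δ.

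Of 7647 RNAs in the table, 4955 had a normalized base mean above 1 and were tested with the quasi-likelihood test of edgeR. An RNA is called enriched here with a fold change above the square root of 2 and an unadjusted p below 0.05, and depleted with the inverse fold change at the same p, which are the limits of the study. By this rule 3689 RNAs, 74.5% of those tested, were enriched and 398, 8.03%, were depleted. With Benjamini-Hochberg adjusted p below 0.05, 3608 were enriched and 385 depleted. Of the enriched RNAs, 3656 were mRNAs, 24 long terminal repeats, 2 retrotransposons and 2 noncoding RNAs, with 1 each of pseudogene, snoRNA, telomeric, transposable element and rRNA entries. With TMM factors no tRNA was enriched, whereas relative log expression (RLE) factors and total counts gave 6. The enriched mRNAs carried 98.2% ± 0.267 of the +ADPRC reads on enriched RNAs (SD, n = 3), and the 1 enriched rRNA, the mitochondrial 21S rRNA, 1.55% ± 0.264. With the calls of DESeq2, mRNAs carried 49.9% ± 8.01 of these reads and rRNA 44.7%, as 4 rRNA entries were called enriched. RLE factors or total counts in edgeR also gave 4 enriched rRNA entries, so the single rRNA call belongs to TMM scaling.

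The evidence for a single mRNA is mainly the number of +ADPRC reads. Of the enriched RNAs, 1973 (53.5%) had no control read and 1393 had 1 to 3 over the 3 controls. In reads as a share of the library (RPM), the groups did not overlap for 3685 of the 3689. Of all 4955 RNAs tested, 4226 had a positive fold change without overlap, and the calls come from the same libraries. Enriched mRNAs had a median of 76 reads summed over the +ADPRC libraries, from 16 to 103035, and 215 had more than 1000. Captured reads were concentrated: the 10 most abundant mRNAs took 22.7% ± 2.44 of +ADPRC mRNA reads, the top 100 took 52.7% ± 1.49 and the top 500 took 76.9% ± 0.966. Library levels were correlated over the 1510 mRNAs with more than 100 reads summed over all capture libraries of the strain. Spearman's rho was 0.933 to 0.937 between +ADPRC replicates, 0.425 to 0.454 between −ADPRC replicates, and 0.261 to 0.322 between a +ADPRC and a −ADPRC library. As the controls held few reads, these mRNAs passed mainly through their +ADPRC reads, so the rho values of the groups cannot be compared.

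The most abundant captured mRNAs encode glycolytic enzymes, a cell wall protein and ribosomal proteins. TDH3, which encodes glyceraldehyde-3-phosphate dehydrogenase, led with 59201, 17256 and 26578 reads in +ADPRC libraries, against 239, 104 and 105 in −ADPRC libraries. CCW12, which encodes a mannoprotein of the cell wall, had 40674, 18444 and 22756 reads in +ADPRC and 34, 17 and 17 in −ADPRC libraries. ENO2, an enolase gene, had 12003, 5805 and 8426 in +ADPRC and 10, 4 and 7 in −ADPRC libraries. All +ADPRC libraries lay far above all controls. Log2 fold changes with TMM factors were 5.22 ± 0.61 for TDH3, 7.71 ± 0.68 for CCW12 and 7.82 ± 0.67 for ENO2 (SE, edgeR adjusted p = 8.1e-17, 8.6e-28 and 1.4e-29). Total counts gave larger values for these genes, 6.83, 9.25 and 9.25 in the same order. PDC1, which encodes the pyruvate decarboxylase of ethanol fermentation, had 8192, 5803 and 8269 reads in +ADPRC and 5, 3 and 1 in −ADPRC libraries. ADH1, the alcohol dehydrogenase that completes this pathway, had 6457, 3999 and 4957 in +ADPRC and 7, 7 and 5 in −ADPRC libraries. The log2 fold changes were 8.85 ± 0.72 for PDC1 and 7.25 ± 0.63 for ADH1, again with no overlap. The ribosomal protein genes RPS1B, RPS23B and RPS23A, and TEF2, a gene of translation elongation factor 1A, were next with log2 fold changes of 7.05 to 8.77. RPS23A and RPS23B, TEF1 and TEF2, TDH3 and TDH2, and ENO1 and ENO2 are near-identical copies whose reads could have been split, so their single values are uncertain.

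**Figure D2:**
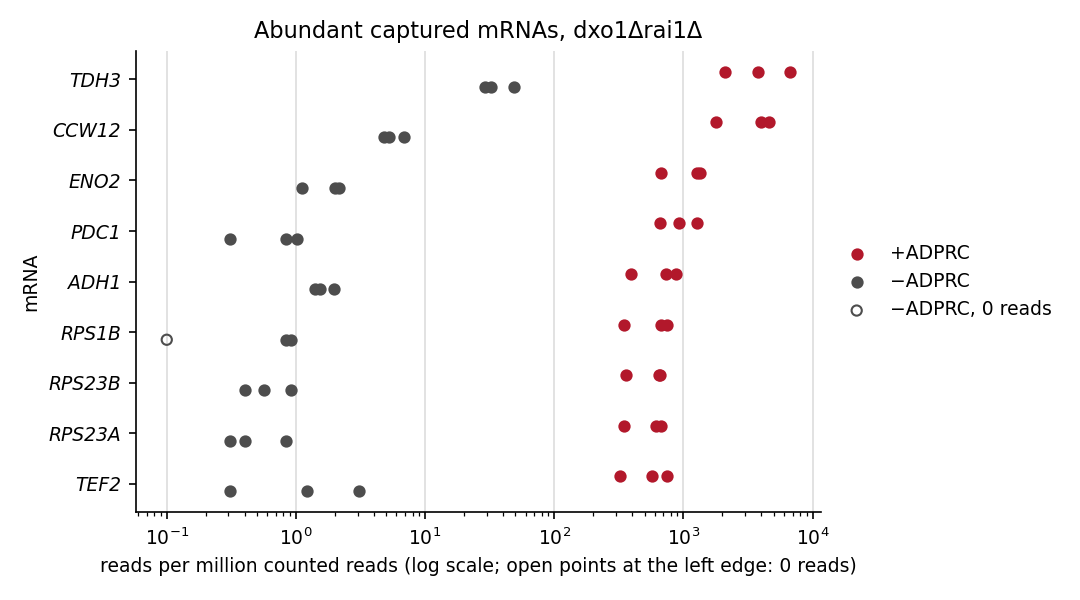
The 9 abundant captured mRNAs named in the text, in RPM (log scale), with a point for each of the 3 +ADPRC and 3 −ADPRC libraries of dxo1Δrai1Δ. Open points mark 0 reads. For every mRNA the lowest +ADPRC point lies right of the highest −ADPRC point.

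These leading mRNAs are shown with the short sequence CAAG or TAAG upstream of the start codon, since this pyrimidine-AAG core is the motif the study describes at its NAD-RNA starts. Each line gives the match nearest the start codon on the sense strand of the RefSeq R64 assembly, with the match in capitals and up to 10 bases on either side.
TDH3: tttaaaacacCAAGaacttagttt
CCW12: cctaacatacCAAGaaattaatct
ENO2: ttcataacacCAAGcaactaatac
ADH1: caagctatacCAAGcatacaatca
RPS1B: ttgaggaaacCAAGcaaaaaaccg
RPS23A: tacaaaaaccTAAGacaacaggaa
The windows lie at chrVII:883837-883860 (minus strand) for TDH3, chrXII:370129-370152 (minus) for CCW12, chrVIII:451286-451309 (plus) for ENO2, chrXV:160610-160633 (minus) for ADH1, chrXIII:146445-146468 (plus) for RPS1B and chrVII:726940-726963 (plus) for RPS23A. The first A of the match stands 39 bases before the start codon in TDH3, 43 in CCW12, 30 in ENO2, 28 in ADH1, 26 in RPS1B and 23 in RPS23A. RPS23B and TEF2, not printed, have their nearest match at 8 and 52 bases. All 6 windows lie upstream of the coding sequence, and PDC1 has neither sequence in its 120 bases. A match is only a description of the letters, as 73.0% of all 5892 mRNA genes with a usable window have one.

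Of 3642 enriched mRNAs with a window, 75.9% had CAAG or TAAG on the sense strand in the 120 bases before the start codon (exact binomial 95% interval 74.5% to 77.3%). Of 733 other tested mRNAs, 71.4% had it (67.9% to 74.6%). In the last 50 bases before the start codon, the shares were 49.1% of enriched mRNAs and 42.0% of the other tested mRNAs, beside 45.8% of all. Enriched mRNAs thus held the letters more often than the others in both windows, a description without a test, since genes are not replicates.

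The mRNAs without any control read include the chaperone gene SSB1, with 1555, 866 and 979 reads in +ADPRC libraries and 0 in all 3 −ADPRC libraries. Against a floor of 3 reads over the controls, SSB1 was at least 216-fold higher in +ADPRC libraries with TMM factors. Total counts put its bound at 510-fold. By the TMM bound RPL20A was at least 180.5-fold higher, IDP1 at least 155-fold, CCT4 at least 127-fold and RPS14A at least 122-fold. RPL20A and RPS14A encode ribosomal proteins, IDP1 the mitochondrial NADP-dependent isocitrate dehydrogenase and CCT4 a subunit of the chaperonin. NPY1, the gene of the deNADding enzyme that this strain keeps, was itself captured, with 256, 126 and 157 reads in +ADPRC and 0 in −ADPRC libraries, at least 34.2-fold higher. Where the controls held over 3 reads, strong changes apart from those above were seen in ILV3, a dehydratase of branched amino acid synthesis (8.83 ± 0.71 on the log2 scale), RPL21A (8.09 ± 0.66), RPS0B (7.96 ± 0.66) and SOD1, the cytosolic superoxide dismutase (7.73 ± 0.64).

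The genes that the study follows individually were enriched as well. SED1, a cell wall mannoprotein gene, had 3018, 1574 and 2014 reads in +ADPRC and 5, 1 and 1 in −ADPRC libraries. POR1, the mitochondrial porin, had 1358, 626 and 1055 in +ADPRC and 1, 0 and 0 in −ADPRC libraries. ERG2, the C-8 sterol isomerase, had 553, 319 and 434 in +ADPRC and 0, 1 and 0 in −ADPRC libraries. These 3 were far above the controls in every replicate, by 7.42 ± 0.63, 8.98 ± 0.74 and 7.80 ± 0.70 on the log2 scale. LSM7 and LSM6, subunits of the Lsm ring that promotes decapping, had fewer +ADPRC reads than these 3. LSM7 had 72, 35 and 39 reads in +ADPRC and 1, 0 and 0 in −ADPRC libraries, and LSM6 had 144, 80 and 88 in +ADPRC and 6, 3 and 2 in −ADPRC libraries. RSM10, a mitochondrial ribosomal protein gene, had 28, 22 and 26 reads in +ADPRC and 0 in −ADPRC libraries, at least 4.83-fold higher. UBC7 and YJR112W-A, with 99, 65 and 110 and with 30, 16 and 22 reads in +ADPRC libraries, had 1 and 0 control reads in all.

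Transcripts of the mitochondrial genome are made by a different polymerase from those of the nucleus. COX2, which encodes a cytochrome c oxidase subunit, had 1994, 1027 and 968 reads in +ADPRC and 2, 1 and 3 in −ADPRC libraries, a log2 fold change of 6.94 ± 0.60. It was the 1 enriched member of the 5 mitochondrially encoded mRNAs that were tested, of 8 in the table. OLI1 had 17, 20 and 18 reads in +ADPRC and 3, 5 and 3 in −ADPRC libraries, and COX3 had 10, 8 and 8 in +ADPRC and 0, 1 and 0 in −ADPRC libraries. The adjusted p was 0.92 for OLI1 and 0.083 for COX3. ATP8 had 5, 4 and 6 reads in +ADPRC and 0 in −ADPRC libraries, with adjusted p = 0.064. With DESeq2, RLE factors or total counts both COX3 and ATP8 passed the limit. The mitochondrial 21S rRNA had 9012, 5888 and 5790 reads in +ADPRC and 261, 118 and 195 in −ADPRC libraries, with a log2 fold change of 2.69 ± 0.49 and no overlap of the groups.

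Among RNAs that encode no protein, few were enriched with TMM factors, and more snoRNAs, 16 in place of 1, with total counts. The snoRNA SNR83 had 357, 154 and 234 reads in +ADPRC and 27, 19 and 19 in −ADPRC libraries, a log2 fold change of 1.05 ± 0.33. TLC1, the RNA template of telomerase, had 118, 95 and 99 in +ADPRC and 17, 7 and 6 in −ADPRC libraries, a log2 fold change of 0.99 ± 0.34. SRG1, the noncoding transcript upstream of SER3, had 77, 36 and 39 reads in +ADPRC and 3, 2 and 3 in −ADPRC libraries (1.82 ± 0.50). All of them had non-overlapping groups in RPM. Without +ADPRC replicate 3, SNR83 was at 0.38 (unadjusted p = 0.14, edgeR) and TLC1 at 0.33 (0.34), and TLC1 also lost the call without −ADPRC replicate 2 (0.70) or 3 (0.63). Retrotransposon RNA was captured at a similar level, with 232, 177 and 266 reads on YLRWTy1-3 in +ADPRC and 10, 13 and 10 in −ADPRC libraries. The enriched pseudogene entry, YDR134C, is a near copy of CCW12 and may share its reads.

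The stable RNAs of the translation and processing machinery were on average the depleted part of the table, in a way that depends on how the libraries are scaled. With TMM factors 282 of 295 tested tRNAs, 55 of 76 snoRNAs and 10 of 16 rRNA entries were depleted, beside 8.03% of all RNAs tested. The median log2 fold change was −1.95 for tRNAs, −1.60 for snoRNAs and −1.33 for rRNA entries, beside 4.96 for mRNAs. Scaling by total counts shifted the median of all RNAs to 5.28, against 4.69 with TMM factors, and it placed the median of tRNAs at −0.59, of snoRNAs at −0.18 and of rRNA entries at 0.07, so that the direction of rRNA turned. The share of depleted tRNAs was then 118 of 295 and that of depleted snoRNAs 19 of 76. The 5 depleted RNAs chosen by size kept their sign under both scalings. They were picked for the largest falls with TMM factors, so that the kept sign is no check on scaling. SNR7-L, the long form of the spliceosomal U5 snRNA, had 375, 188 and 281 reads in +ADPRC and 983, 720 and 853 in −ADPRC libraries, a log2 fold change of −4.08 ± 0.50 with TMM factors and −2.66 with total counts. NME1, the RNA of RNase MRP, had 1096, 728 and 838 in +ADPRC and 2455, 1430 and 1927 in −ADPRC libraries (−3.59 ± 0.52, and −2.10 with total counts). The snoRNAs SNR74, SNR9 and SNR13 fell by 3.63, 3.50 and 3.36 on the log2 scale.

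**Figure D3:**
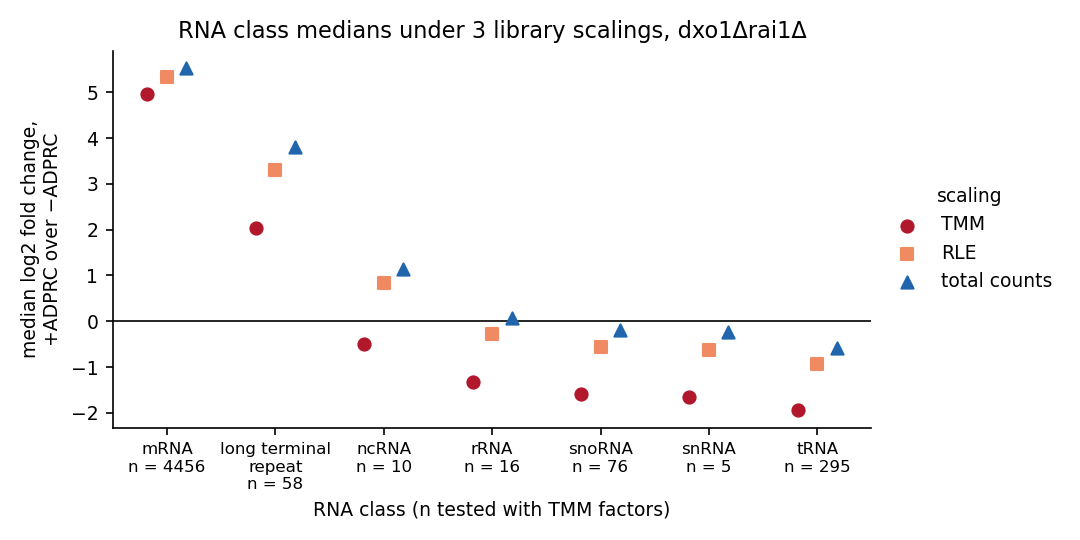
Median log2 fold change of +ADPRC over −ADPRC libraries for each RNA class of dxo1Δrai1Δ, with TMM factors, RLE factors and total counts. mRNA medians lie between 4.96 and 5.54 under the 3 scalings, whereas rRNA entries lie at −1.33, −0.28 and 0.07.

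Among the mRNAs 36 were depleted with TMM factors and 3 with total counts, and they held little signal. Their median was 9.5 reads over all 6 libraries, 19 had at most 10, and 7 had no +ADPRC read. PRT1, a subunit of translation initiation factor 3, had no +ADPRC read and 3, 1 and 0 reads in the −ADPRC libraries, so that only its controls held any. YLR162W, described above, was the one with most reads (−2.23 on the log2 scale).

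The gene lists used here group the captured mRNAs by function. Among all tested mRNAs, 82.0% of 4456 were enriched, with a median log2 fold change of 4.96, so that an enriched member is the usual case. Of the small subunit ribosomal protein genes 56 of 57 were enriched (median 6.46), and of the large subunit genes 81 of 82 (median 6.36). All 12 tested cell wall mannoprotein genes (median 6.86), all 16 heat shock and chaperone genes (6.89), all 33 proteasome genes (5.55) and all 8 core snoRNP protein genes (6.10) were enriched. Of the glycolysis and ethanol fermentation genes 21 of 23 were enriched (5.36), of ergosterol synthesis 22 of 23 (6.62), of peroxide and superoxide defence 12 of 13 (6.47), of translation factors 34 of 35 (5.32) and of histones 10 of 11 (5.56). Of the mitochondrial functions, 71 of 76 mitochondrial ribosomal protein genes (5.42), 35 of 38 nuclear genes of oxidative phosphorylation (5.16), 9 of 10 porin, carrier and prohibitin genes (4.77) and 13 of 15 tricarboxylic acid cycle genes (3.32) were enriched. All 6 tested hexose transporter genes (4.82) and 12 of 13 genes of NAD synthesis and salvage (5.41) were enriched. Of the genes of decapping and 5′ to 3′ decay, 14 of 18 were enriched (3.70), a share of 77.8% that lies near that of all mRNAs. Fold changes of genes without control reads depend on the model's prior count, so that these medians describe the fit and are no bounds.

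Single members show the range of levels within these lists. HTB1, a histone H2B gene, had 1818, 781 and 1129 reads in +ADPRC and 4, 0 and 0 in −ADPRC libraries. RPT2, a proteasome ATPase, had 255, 126 and 151 in +ADPRC and 0 in −ADPRC libraries. IDH2, a subunit of the NAD-dependent isocitrate dehydrogenase, had 835, 270 and 346 in +ADPRC and 16, 13 and 6 in −ADPRC libraries. The 3 genes were enriched with no overlap of the groups, although IDH2 had the higher background. Within NAD synthesis and salvage, the nicotinic acid transporter gene TNA1 had 147, 75 and 91 reads in +ADPRC and 1 in each −ADPRC library. PNC1, the nicotinamidase, had 55, 29 and 45 in +ADPRC and 0 in −ADPRC libraries. Among decapping factors, DCP1, the activator of the m7G decapping enzyme, had 153, 61 and 126 in +ADPRC and 2, 0 and 1 in −ADPRC libraries.

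Captured levels followed transcript levels only in part. Over 3678 mRNAs with a mean of at least 50 reads in the 5′ regions of the 3 dxo1Δrai1Δ transcriptome libraries, summed +ADPRC and transcript counts had a Spearman's rho of 0.338 and a Pearson's r of 0.415 on the log2 scale. The −ADPRC counts gave 0.297 and 0.413. With coding-sequence counts of the same transcriptome libraries in place of 5′ regions, rho was 0.630. These are descriptions across genes, which share the libraries and are not independent replicates.

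Introns near the start codon moved with the 5′ region values. In 61 of the 3678 mRNAs, the first coding exon of the R64 annotation is at most 65 bases long, so that the exon junction falls within the counted window. The ratio of +ADPRC level to transcript level, each scaled to the mRNA reads of its library and with 0.5 added to each count, had a median of 3.63 on the log2 scale in these 61 mRNAs and of −0.89 in the other 3617. All 10 mRNAs with the highest ratios, among them RPS23B at 8.17, RPS23A at 7.86 and RPL43A at 7.84, are ribosomal protein genes of this kind, which was noticed after their values were seen. RPL43A had 3762, 2224 and 3400 reads in +ADPRC libraries, beside 47, 72 and 49 in the transcriptome libraries. Without the 61 mRNAs, rho of captured and transcript levels was 0.365. How reads across junctions were counted in either kind of library was not tested.

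The split also bears on how much of the captured mRNA was ribosomal. The 31 small subunit genes with a first exon of at most 65 bases took 6.69%, 6.79% and 7.16% of mRNA reads in +ADPRC libraries, 0.859%, 1.85% and 1.96% in −ADPRC libraries and 0.116% to 0.122% in transcriptome libraries. The other 26 took 6.56% to 6.70% in +ADPRC, 2.96% to 3.25% in −ADPRC and 5.86% to 6.52% in transcriptome libraries. Thus the genes with an early junction took a far larger part of the captured reads than of the transcript reads, and the others a similar part. The large subunit genes showed the same, at 7.16% to 7.32% of +ADPRC and 0.140% to 0.153% of transcriptome reads for 46 genes with an early junction. The other 36 large subunit genes were at 7.04% to 8.20% of +ADPRC and 7.49% to 8.59% of transcriptome reads. Glycolysis and ethanol fermentation genes, none with an early junction, took 12.8% to 16.2% of +ADPRC, 6.36% to 7.00% of −ADPRC and 6.73% to 8.26% of transcriptome reads. Cell wall mannoprotein genes took 6.91% to 8.51% of +ADPRC, 0.934% to 1.22% of −ADPRC and 2.92% to 3.64% of transcriptome reads. For both of these lists every +ADPRC library lay above every transcriptome library, with much of the share on 1 member each. TDH3 alone took 5.41% to 9.63% of +ADPRC and 1.97% to 2.49% of transcriptome reads, and the other glycolysis genes 6.55% to 7.41% and 4.76% to 5.77%. CCW12 alone took 5.22% to 6.62% of +ADPRC and 1.62% to 2.12% of transcriptome reads, and the other cell wall genes 1.68% to 1.96% and 1.29% to 1.52%. The median member had a captured-to-transcript ratio of −0.49 on the log2 scale for glycolysis and 0.42 for cell wall genes, beside −0.85 over all mRNAs.

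**Figure D4:**
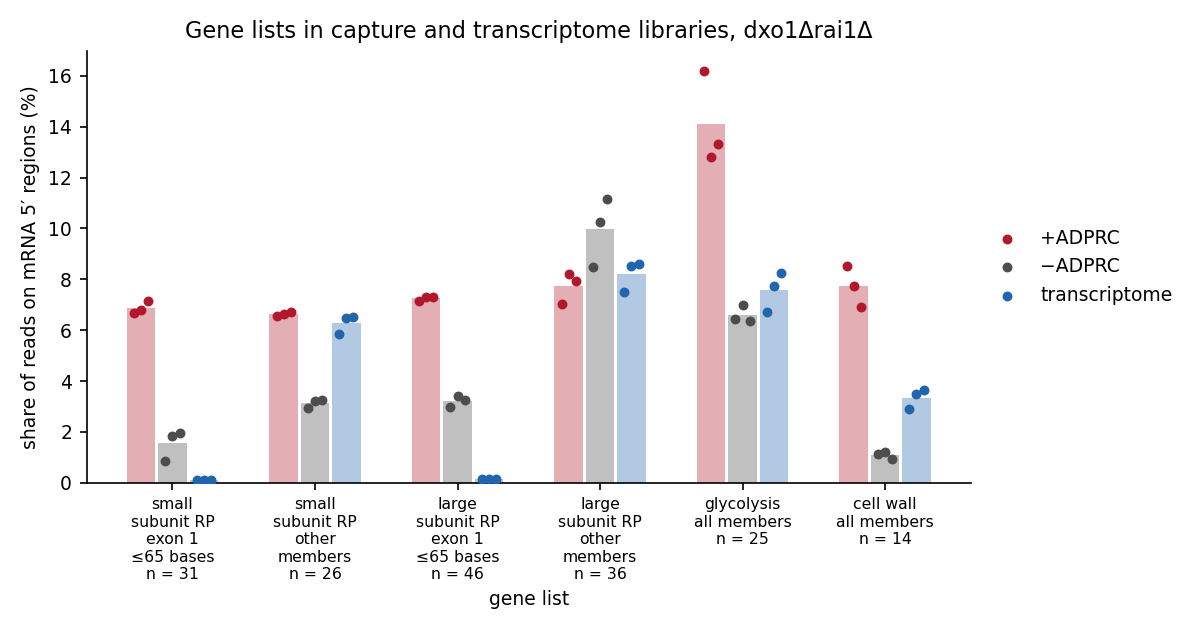
Share of reads on mRNA 5′ regions (percent) that fell on 4 gene lists in dxo1Δrai1Δ, with a point per library and bars for means of 3 +ADPRC, 3 −ADPRC and 3 transcriptome libraries. Ribosomal protein (RP) genes are split by the length of their first coding exon. Cell wall genes lie at 6.91% to 8.51% in +ADPRC and at 2.92% to 3.64% in transcriptome libraries.

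The capture-to-transcript ratio was reproducible, with a Spearman's rho of 0.952 to 0.959 between replicates, and 90% of mRNAs lay between −5.45 and 1.88 on the log2 scale around a median of −0.85. Outside the genes with an early junction, the highest ratios, chosen after values were seen, were of MRI1, an isomerase of methionine salvage (4.23 ± 0.20, SD, n = 3), RPS0A (4.22 ± 0.06) and the proteasome gene RPN11 (3.90 ± 0.07). The SD is over ratios of a +ADPRC library to the transcriptome library of the same number, a match by number alone. RPN11 had 443, 237 and 346 reads in +ADPRC libraries, beside 63, 116 and 105 in transcriptome libraries. At the other end, AUR1, an essential enzyme of sphingolipid synthesis, had 0, 0 and 1 reads in +ADPRC libraries, beside 679, 952 and 680 in transcriptome libraries. COP1, a coatomer subunit gene, had 2, 0 and 0 reads in +ADPRC, beside 778, 895 and 602 in transcriptome libraries. PRT1, with no +ADPRC read, had 610, 852 and 572 in transcriptome libraries. These mRNAs were present in the cells and had between 0 and 2 captured reads over the 3 +ADPRC libraries. Their ratios, −7.99 for AUR1, −7.75 for COP1 and −8.34 for PRT1, lay below −5.45, so that capture was low for their transcript level. With so few reads the exact ratios rest on the 0.5 added to each count.

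Promoter letters moved with this ratio. mRNAs with a window were divided into 4 equal groups of 883 by the capture-to-transcript ratio, a grouping chosen after seeing the data. From the lowest to the highest group, 65.9%, 70.1%, 75.9% and 82.1% had CAAG or TAAG in the 120 bases before the start codon. In the last 50 bases, the shares were 38.1%, 41.6%, 47.6% and 58.1%. Without genes with an early junction, the 4 shares were 65.8%, 70.2%, 75.9% and 82.3% in 120 bases. The exact binomial 95% interval was 62.7% to 69.0% in the lowest group and 79.4% to 84.6% in the highest, and covers counting error only.

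The enriched RNAs of dxo1Δrai1Δ overlapped with those of the other mutants, when the same test was run within each strain. Of its 3689, 3034 were also enriched in dxo1Δrai1Δnpy1Δ (82.2% of the dxo1Δrai1Δ list and 94.8% of the 3200 of the other strain). With dxo1Δ the list shared 3285 (89.0%, and 91.0% of 3610), with rai1Δ 2588 (70.2%, and 98.3% of 2634) and with WT 1093 (29.6%, and 79.0% of 1384). Many of the remaining RNAs were too sparse to be tested in dxo1Δ, rai1Δ or WT, whereas nearly the whole list was tested in dxo1Δrai1Δnpy1Δ. Of the 3689, 3664 were tested in dxo1Δrai1Δnpy1Δ, 3329 in dxo1Δ, 3092 in rai1Δ and 1662 in WT, and of these 82.8%, 98.7%, 83.7% and 65.8% were shared. The background is high, as 60.0%, 87.4%, 67.7% and 50.9% of all RNAs tested in these strains, in that order, were enriched. In all 4 other strains 841 were enriched, 22.8% of the list. A further 187 RNAs were called in dxo1Δrai1Δ alone, 179 of them mRNAs, and these were sparse, with a median of 21 summed +ADPRC reads, against 82 for those shared with at least 1 other strain. Depth on mRNAs differed between strains, from 29995 reads in the shallowest WT to 769182 in the deepest dxo1Δrai1Δnpy1Δ +ADPRC library, and its part in the overlap was not tested.

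Whether enrichment itself differed from another strain was tested by the interaction of strain and ADPRC over 12 libraries, at adjusted p below 0.05. Against dxo1Δrai1Δnpy1Δ, which differs by NPY1, enrichment was higher for 5 RNAs and lower for none of 5126, 0.0975% of those tested. At an unadjusted p below 0.05 there were 495, and DESeq2 called 0. Omitting 1 library of dxo1Δrai1Δ gave 1 to 16 calls, the 16 without −ADPRC replicate 1. Leading differences were of RAD59, a recombination gene, with a log2 difference of 3.28 ± 0.61, CTR2, a vacuolar copper transporter, at 3.21 ± 0.71, and VMA8, a subunit of the vacuolar ATPase, at 2.97 ± 0.70. They came with high counts in 1 control library of the other strain. RAD59 had 33, 15 and 16 reads in +ADPRC and 2, 3 and 7 in −ADPRC libraries of dxo1Δrai1Δ, beside 16, 31 and 22 in +ADPRC and 2, 6 and 81 in −ADPRC libraries of dxo1Δrai1Δnpy1Δ. That control, the one with 81 reads, held 42483 mRNA reads, the most of the controls of both strains.

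Against dxo1Δ, 15 of 4593 RNAs differed (0.327%), all with lower enrichment in dxo1Δrai1Δ. Larger fitted differences than those named, such as −6.95 for the telomeric entry TEL04R and −6.69 for MCK1, were of RNAs with no or few control reads in dxo1Δ. The gene of the ribosomal stalk protein RPP0 had a log2 difference of −3.27 ± 0.81, STM1, a ribosome-bound protein, of −2.84 ± 0.72 and RPL32 of −2.63 ± 0.59. For RPP0 the reads were 1893, 1056 and 1298 in +ADPRC and 26, 22 and 21 in −ADPRC libraries of dxo1Δrai1Δ, and 826, 992 and 841 in +ADPRC and 4, 8 and 3 in −ADPRC libraries of dxo1Δ. The difference thus came with control reads that were higher in dxo1Δrai1Δ. With RLE factors 1 RNA was called, and omitting −ADPRC replicate 3 gave 76 and replicate 2 gave 66, while omitting any other library left 2 or 3. RPP0, STM1 and RPL32 each lost the call when any +ADPRC library was omitted.

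Against rai1Δ, 12 of 4429 RNAs differed (0.271%), all with higher enrichment in dxo1Δrai1Δ. Larger fitted differences, such as 7.40 for HSP42 and 6.72 for UTP15, were of RNAs with 0 to 2 control reads in dxo1Δrai1Δ. With more than 3 control reads in both strains they include YPL199C at 3.57 ± 0.75, ERS1 at 3.01 ± 0.74 and RRN5, a gene of the RNA polymerase I upstream activating factor, at 2.61 ± 0.65. RRN5 had 35, 32 and 42 reads in +ADPRC and 4, 5 and 4 in −ADPRC libraries of dxo1Δrai1Δ, and 102, 38 and 12 in +ADPRC and 96, 45 and 6 in −ADPRC libraries of rai1Δ. In rai1Δ, then, the reads on RRN5 were as many without the enzyme as with it. DESeq2 called 1 RNA and total counts gave 1, and omitting 1 library gave 4 to 10, the 4 without −ADPRC replicate 2.

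Against WT, 262 of 4478 RNAs differed (5.85%), 46 with higher enrichment (1.03%) and 216 with lower (4.82%). The direction depended on scaling: RLE factors gave 135 higher and 18 lower, and total counts 98 higher and 82 lower. Without +ADPRC replicate 1 there were 148 calls in all. Among RNAs with a base mean above 10 and more than 3 control reads in both strains, the limits for naming an RNA in these comparisons, higher enrichment was largest for RPS23A (5.38 ± 1.20), PDC1 (5.04 ± 0.86) and HTB1 (4.43 ± 0.96). PDC1 had 392, 44 and 29 reads in +ADPRC and 13, 5 and 0 in −ADPRC libraries of WT, beside the dxo1Δrai1Δ reads given above. Of the 216 with lower enrichment, 151 were tRNAs. The proline tRNA tP(UGG)L had 107, 53 and 73 reads in +ADPRC and 52, 24 and 34 in −ADPRC libraries of dxo1Δrai1Δ, and 450, 289 and 185 in +ADPRC and 15, 26 and 10 in −ADPRC libraries of WT. Its log2 difference was −5.21 ± 0.56, beside −5.87 ± 0.65 for tP(UGG)O3 and −5.39 ± 0.84 for tP(UGG)N1, genes of the same tRNA that can share reads.

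The enrichment comparisons are limited by controls with few reads, with a median SE of 2.56 to 2.76 on the log2 scale. Therefore the captured mRNAs were also compared directly, as the composition of mRNA reads of +ADPRC libraries of 2 strains without YLR162W, a comparison added after seeing the data. Transcriptome values of the same strains stand beside it. Against dxo1Δrai1Δnpy1Δ 3 of 5215 mRNAs were higher (0.0575%) and 0 lower, with 258 at an unadjusted p below 0.05 and 1 called by DESeq2 or without +ADPRC replicate 1. NPY1 had 256, 126 and 157 reads in dxo1Δrai1Δ and 2, 1 and 2 in dxo1Δrai1Δnpy1Δ, in which it is deleted (log2 fold change 6.92 ± 0.32). YGP1, a stress-induced cell wall glycoprotein gene, had 163, 83 and 82 reads in dxo1Δrai1Δ and 35, 73 and 116 in dxo1Δrai1Δnpy1Δ (0.85 ± 0.18), and TSL1, of trehalose synthesis, was higher by 1.59 ± 0.35. The transcript of YGP1 was higher as well, at 0.69 with adjusted p = 0.014.

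Against dxo1Δ 131 of 4950 mRNAs were higher (2.65%) and 128 lower (2.59%). With DESeq2 50 were higher and 107 lower. RAI1, deleted in dxo1Δrai1Δ, was among the lower ones, with 0 captured reads in dxo1Δrai1Δ and 14, 3 and 5 in dxo1Δ. The zinc transporter gene ZRT1 had 17, 6 and 11 reads in dxo1Δrai1Δ and 94, 66 and 36 in dxo1Δ (−3.75 ± 0.28), and the phosphate transporter gene PHO89 had 17, 2 and 14 in dxo1Δrai1Δ and 66, 60 and 46 in dxo1Δ (−3.61 ± 0.28). PHO5, the secreted acid phosphatase, was at −2.48 ± 0.20, TIR1, a cold-shock and anaerobic mannoprotein, at −3.34 ± 0.23 and HEM13, of heme synthesis, at −2.76 ± 0.26. CSS1 was at −3.00 ± 0.45, with a transcript difference of −2.68. Transcript differences had the same sign, at −1.93 for ZRT1, −3.04 for PHO89, −1.19 for PHO5, −3.35 for TIR1 and −1.40 for HEM13. BNA7, of NAD synthesis from tryptophan, differed in the captured reads, with 9, 6 and 13 in dxo1Δrai1Δ and 26, 29 and 24 in dxo1Δ (−2.71 ± 0.32), while its transcript was at 0.03 with adjusted p = 0.93. The higher ones included the heat shock gene HSP12 (3.62 ± 0.53, transcript 3.59), the iron-sulfur scaffold gene ISU2 (2.25 ± 0.33, transcript 1.72) and HOR7 (1.88 ± 0.24, transcript 1.51). Of the 131 higher mRNAs 85 were also higher as transcripts and 0 lower, and of the 128 lower 67 were also lower and 6 higher, beside 8.18% of all transcripts higher and 7.15% lower.

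Against rai1Δ 28 of 4909 mRNAs were higher (0.570%) and 27 lower (0.550%), and 0 and 1 of these had a transcript difference in the same direction. Without +ADPRC replicate 2 or 3 there were 32 or 36 calls in all. Over all mRNAs, 0.286% of transcripts were higher and 0.365% lower against rai1Δ, so that a low count was the background case. DXO1, deleted in dxo1Δrai1Δ, was the 1 lower mRNA whose transcript was also lower. It had 0 captured reads in dxo1Δrai1Δ and 15, 8 and 1 in rai1Δ. The other reduced mRNAs described here were read in rai1Δ without the enzyme as well. ZPS1, a cell surface protein gene induced by low zinc, had 2, 1 and 1 reads in dxo1Δrai1Δ +ADPRC libraries and 55, 31 and 2 in rai1Δ +ADPRC libraries, but also 60, 37 and 6 in rai1Δ −ADPRC libraries. CWH43, of GPI anchor lipid remodelling, had 71, 53 and 42 reads in dxo1Δrai1Δ +ADPRC libraries and 270, 126 and 25 in rai1Δ +ADPRC libraries, beside 417, 143 and 19 in rai1Δ −ADPRC libraries. The log2 fold changes were −5.21 ± 0.48 for ZPS1 and −2.29 ± 0.20 for CWH43. YOR146W, with 44, 28 and 3 control reads in rai1Δ, showed the same pattern (−5.40 ± 0.52). Among the higher ones were VMA4, a subunit of the vacuolar ATPase (1.00 ± 0.19), and PAM17, of the mitochondrial import motor (1.51 ± 0.36). VMA4 had 323, 221 and 309 reads in dxo1Δrai1Δ and 144, 60 and 19 in rai1Δ. The rai1Δ +ADPRC libraries held fewer mRNA reads, 599893, 140947 and 54624, against 621323, 323163 and 445524 in dxo1Δrai1Δ.

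Against WT the captured mRNAs differed widely, with 1729 of 4951 higher (34.9%) and 690 lower (13.9%). With total mRNA counts in place of TMM factors, 1384 were higher and 1155 lower, with a median log2 fold change of 0.33 in place of 1.15. Without +ADPRC replicate 2 or 3 the calls numbered 1413 or 1436 in all. The transcriptomes differed widely as well, with 2479 of 6348 mRNAs higher (39.1%) and 2352 lower (37.1%). Of the captured 1729 higher mRNAs, 1344 were also higher as transcripts and 125 were lower. Among the 690 lower, 610 were also lower as transcripts and 27 were higher. Ribosomal protein genes were higher in captured RNA for 56 of 57 small subunit and 82 of 82 large subunit members. Small subunit genes took 13.3% to 13.9% of captured mRNA reads in dxo1Δrai1Δ and 0.677% to 1.05% in WT. In the transcriptome libraries they took 5.98% to 6.64% in dxo1Δrai1Δ and 0.436% to 0.488% in WT, so that the transcript level moved with the captured level. TEF4, of translation elongation factor 1B, had 524, 306 and 435 captured reads in dxo1Δrai1Δ and 0 in WT. In the other direction, SPG4, named for survival in stationary phase, had 0, 1 and 0 captured reads in dxo1Δrai1Δ and 2557, 381 and 336 in WT, and its transcript had 1, 9 and 3 reads in dxo1Δrai1Δ and 1259, 2172 and 2349 in WT. The plasma membrane heat shock gene HSP30 had 0, 2 and 0 captured reads in dxo1Δrai1Δ and 535, 121 and 105 in WT, with transcript reads of 45, 74 and 43 in dxo1Δrai1Δ and 26612, 26277 and 32300 in WT. TKL2, a transketolase gene, and MLS1, the malate synthase of the glyoxylate cycle, were likewise at 0 in dxo1Δrai1Δ, against 287, 79 and 26 and against 135, 35 and 21 captured reads in WT.

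**Figure D5:**
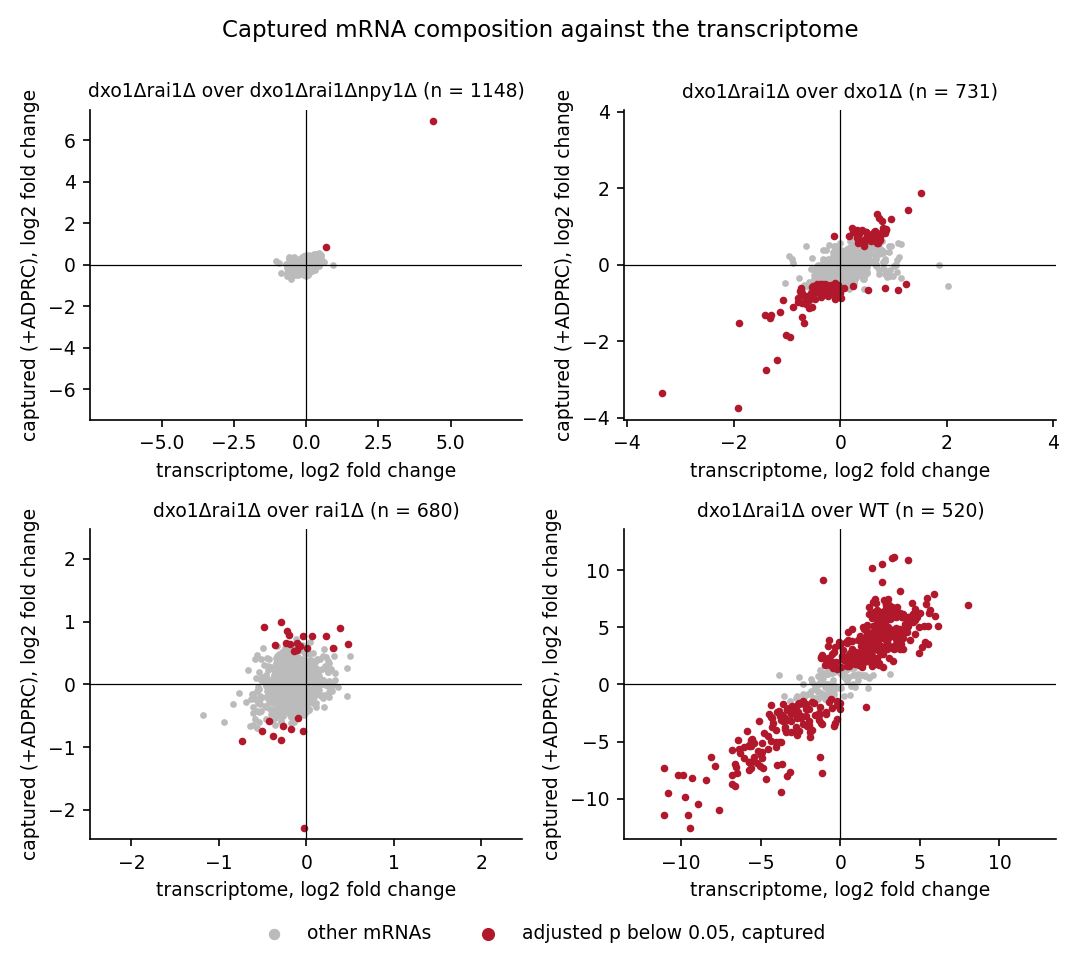
Log2 fold change of captured mRNA levels (+ADPRC libraries, vertical) against that of transcript levels (horizontal) for dxo1Δrai1Δ over 4 other strains, for mRNAs with a captured base mean above 50. Red points passed adjusted p below 0.05 in the captured comparison. Against WT the captured differences rose with the transcript differences (Pearson's r 0.90 over 520 mRNAs), and against rai1Δ the points scatter (0.24 over 680).

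Over mRNAs with a captured base mean above 50, captured and transcript differences of dxo1Δrai1Δ had a Pearson's r of 0.61 against dxo1Δrai1Δnpy1Δ (1148 mRNAs), 0.68 against dxo1Δ (731), 0.24 against rai1Δ (680) and 0.90 against WT (520). The value against dxo1Δrai1Δnpy1Δ holds NPY1 itself, and Spearman's rho there was 0.33. The typical captured difference was small among the mutants, with a median absolute log2 fold change of 0.10 against dxo1Δrai1Δnpy1Δ, 0.28 against dxo1Δ and 0.21 against rai1Δ, beside 3.33 against WT.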

How the data were processed

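The authors trimmed reads, set those of 12 to 17 nucleotides apart, mapped the longer ones with bowtie to a BY4742 assembly, where rRNA and tRNA reads were counted on their own, and deposited raw counts per RNA made with htseq-count, without normalization. A spike-in standard that the authors counted apart was not used here. The submitters' notes name SAMtools 0.1.13 and DESeq2 1.4.5. Tables of the authors' own comparisons (fold changes, p-values) were not used, nor were 18 per-sample columns of other strains.

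The test of counts was the quasi-likelihood one of edgeR (version 4.0.16, run in R 4.3.3) after TMM scaling, p-values were adjusted by Benjamini-Hochberg, and DESeq2 1.42.0 served as an alternative. The code was tested on simulated data. Samples were grouped by their labels. Members and gene lists were chosen with earlier results of these data known. Named genes are the 10 enriched mRNAs with most +ADPRC reads (1 is not reported here), those with the largest changes, the most abundant of each list and class, and genes the study names. Others are marked as chosen after values were seen. Without control reads, a fold is a bound against 3 reads over the group. Replicates are separate cultures. No collapsing of reads to molecules is described, so intervals and floors cover counting error only. Of 6598 mRNAs, 5914 matched a RefSeq R64 locus. That assembly differs from the authors' and supplied gene names, first-exon lengths, leader sequences and the coordinates printed.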

Additional observations from a re-analysis of the deposited data

Results flagged for a closer look

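Enrichment in dxo1Δrai1Δ differed from that in another strain, by the interaction of strain and ADPRC in edgeR, for 5 RNAs against dxo1Δrai1Δnpy1Δ, 15 against dxo1Δ, 12 against rai1Δ and 262 against WT. Against dxo1Δrai1Δnpy1Δ the named log2 differences were 3.28 for RAD59, 3.21 for CTR2 and 2.97 for VMA8, and the third −ADPRC library of that strain held 81, 29 and 42 reads on them. Against dxo1Δ they were −3.27 for RPP0, −2.84 for STM1 and −2.63 for RPL32, each with more control reads in dxo1Δrai1Δ (69, 72 and 95 summed) than in dxo1Δ (15, 18 and 26). Against rai1Δ they were 3.57 for YPL199C, 3.01 for ERS1 and 2.61 for RRN5, each with fewer control reads in dxo1Δrai1Δ (4, 4 and 13 summed) than in rai1Δ (32, 64 and 147). Against WT they were 5.38 for RPS23A, 5.04 for PDC1 and 4.43 for HTB1, and −5.87 for tP(UGG)O3, −5.39 for tP(UGG)N1 and −5.21 for tP(UGG)L. The part of sequencing run and depth in these differences was not tested.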

How the results depend on the processing

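Single library values, read counts and mRNA shares do not depend on a model, whereas calls do. The part of +ADPRC reads on enriched RNAs that lay on mRNAs was 49.9% with the calls of DESeq2, Spearman's rho of captured and transcript levels was 0.630 with coding-sequence counts, and the share of enriched mRNAs with CAAG or TAAG was 49.1% in a window of 50 bases. With filterByExpr 1821 RNAs were enriched, since fewer were tested, and depleted RNAs numbered 149 with total counts and 131 with library sizes from rRNA and tRNA. The proline tRNA tP(UGG)L had a log2 fold change of 0.0695 and 0.16 in place of −1.38 under these 2 scalings. Of the other alternative values for named RNAs, 1994 kept their side of the threshold and direction, 120 lost the call and 23 gained one, and the cause was not tested.

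The tests of a difference in enrichment changed most. Against dxo1Δrai1Δnpy1Δ the 5 calls became 0 with DESeq2, RLE factors or total counts and 3 with filterByExpr. Against dxo1Δ the 15 became 1 with RLE factors, 4 with no filter and 29 with filterByExpr. Against rai1Δ the 12 became 1 with DESeq2 or total counts and 2 with RLE factors, and against WT the 262 became 543 with DESeq2 and 153 with RLE factors. For captured composition, DESeq2 called 1 mRNA against dxo1Δrai1Δnpy1Δ, 157 against dxo1Δ (50 higher, 107 lower) and 35 against rai1Δ.

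Same-numbered +ADPRC and −ADPRC libraries had correlations of 0.03, −0.04 and −0.03 in their deviations from the group means. With few control reads per RNA, these values cannot show whether the numbers pair the libraries. With a replicate block 2815 RNAs were enriched and 320 depleted, the differences in enrichment from dxo1Δrai1Δnpy1Δ, dxo1Δ and rai1Δ numbered 0 each and from WT 23 higher and 189 lower, and composition calls were 1 against dxo1Δrai1Δnpy1Δ and 1131 against WT.

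Leaving out 1 library of dxo1Δrai1Δ at a time, the difference in mRNA share was 5.04 to 6.80 percentage points, where the exact permutation test cannot give a p under 0.2, and rho was 0.333 to 0.341. Enriched RNAs numbered 2854 to 3839 and depleted RNAs 342 to 459. Differences in enrichment numbered 1 to 16 against dxo1Δrai1Δnpy1Δ, 2 to 76 against dxo1Δ, 4 to 10 against rai1Δ and 148 to 303 against WT. Against dxo1Δrai1Δnpy1Δ the 16 were without −ADPRC replicate 1, and every other omission gave 3 or fewer. Against dxo1Δ omitting −ADPRC replicate 2 or 3 gave 66 or 76, and omitting any other library 3 or fewer. Against rai1Δ the fewest, 4, were without −ADPRC replicate 2, and against WT the 148 were without +ADPRC replicate 1. Composition calls numbered 1 to 4, 173 to 189, 32 to 46 and 1413 to 2285 against the same strains in that order, and the lowest against WT was without +ADPRC replicate 2, with 1436 without replicate 3.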
